A study of Homo sapiens with 4 samples.

Results

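The antisense long noncoding RNA genes were described in 4 RNA-seq libraries labelled NB4, a human acute promyelocytic leukemia (APL) cell line. A gene was taken when its symbol ended in -AS and a digit, its entries were RefSeq noncoding transcripts, and its expression averaged at least 0.5 FPKM (a read density corrected for transcript length and library total) over the 4 libraries. The members were thus chosen by their mean level, which is given as a description. Of 530 antisense genes in the table, 233 met this rule, out of 16504 gene symbols in all. The control group held 2 libraries labelled NC, with CEBPG present, and the knockdown group held 2 libraries labelled CEBPG3, with CEBPG knocked down. In the study, knockdown used short hairpin RNAs (shRNAs) in a pLKO.1-puro lentivirus, and infected cells were selected with puromycin as stable lines. The number in CEBPG3 was read as the number of the hairpin, which is an assumption, and the knockdown group then rests on that hairpin alone. The labels name no clone and do not say whether the replicates were separate cultures, so p-values measure only the spread between these libraries.

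Antisense RNA genes are transcribed from the strand opposite to a protein-coding or other gene, whose name they carry, here called the sense gene. Some start inside or beyond the sense gene and run across its exons, whereas others share its promoter region and run away from it, and these divergent genes are now often named -DT. Most are spliced and polyadenylated and do not code for a known protein. Antisense RNAs may act on the gene they lie against, act elsewhere in the cell, or have no known role. CEBPG is a bZIP transcription factor of the C/EBP family that binds DNA as a dimer, often with ATF4.

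CEBPG itself measured 17.1 and 18.1 FPKM under control conditions and 6.91 and 7.96 FPKM after knockdown, a mean of 42.2% of control (log2 fold change -1.14, adjusted p = 0.00162 in limma). The cell type markers went against the NB4 label. In every library, 5 of 10 promyelocyte and myeloid markers were under 1 FPKM (PRTN3, AZU1, ITGAM, CSF3R and CEBPA), and 3 (SPI1, LYZ and CD68) were over 10 FPKM. By contrast, 9 of 10 erythroid markers were over 10 FPKM in every library, with HBG2, a fetal globin, at a mean of 3308 FPKM. The summed erythroid markers were 7419 to 7862 FPKM in control and 8435 to 9022 FPKM in knockdown. The summed myeloid markers were 61.5 to 62.7 FPKM in control and 88.7 to 91.8 FPKM in knockdown. Its members moved both ways, with CD68 at 20.6 and 18.5 FPKM in control and 47.3 and 43.9 FPKM in knockdown, and LYZ at 20.1 and 18.1 against 15 and 15.5 FPKM. The part of these cell states in the results was not tested, and fewer cells of a type cannot be told apart from less RNA per cell in bulk samples.

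Antisense genes were expressed at low levels. All 233 were above 0 in every library, 163 averaged at least 1 FPKM and 15 at least 10 FPKM, and together they held 0.212% to 0.219% of all FPKM. Their median was 1.5 and 1.49 FPKM in control and 1.67 and 1.64 FPKM in knockdown. The median of the mean level was 1.53 FPKM, against 8.46 FPKM over the 11933 genes tested, and the median spread between replicates on the log2 scale was 0.112 against 0.073. The members just inside the threshold were XXYLT1-AS2 and DENND5B-AS1 (0.506 FPKM each) and TMCO1-AS1 (0.503 FPKM). Just outside lay TOLLIP-AS1 (0.492 FPKM), P4HA2-AS1 (0.488 FPKM) and RORA-AS1 (0.481 FPKM). In 211 members the mean reached 0.5 FPKM in both groups, in 10 only in control and in 12 only in knockdown.

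The most abundant antisense gene was PROSER2-AS1, at 37.6 and 37.9 FPKM in control and 38.1 and 39.1 FPKM in knockdown. Its level was thus nearly flat (log2 fold change 0.03, 95% interval -0.10 to 0.16), and it lay above its sense gene PROSER2, which averaged 6.73 FPKM. WARS2-AS1 (27.5 FPKM), FGD5-AS1 (26.3 FPKM), B3GALT1-AS1 (20.1 FPKM), MRPL20-AS1 (19.4 FPKM) and DLGAP1-AS2 (19.2 FPKM) followed. OIP5-AS1 (18.6 FPKM), PAX8-AS1 (17.7 FPKM), MAPKAPK5-AS1 (16.5 FPKM) and OTUD6B-AS1 (14.2 FPKM) completed the first 10 by mean level. OIP5-AS1 is a conserved noncoding RNA, known as Cyrano, that drives the decay of the microRNA miR-7. Neighbours in this order overlapped in their values over the 4 libraries, except PROSER2-AS1 and WARS2-AS1, and FGD5-AS1 and B3GALT1-AS1.

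Of 229 sense gene symbols, 222 were in the table. Over the 224 pairs with values, the median antisense level was 20.3 for every 100 of its sense gene on the FPKM scale, which is per length. The antisense gene was the higher of the pair in 64 of 224 pairs. Many of these had a sense gene that was hardly detected, such as DLGAP1, a postsynaptic scaffold gene at 0.110 FPKM, and B3GALT1, a galactosyltransferase gene at 0.300 FPKM. Across the 196 pairs in which both genes were tested, the log2 levels were nearly uncorrelated (r = -0.060, a description over pairs that share libraries).

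**Figure D1:**
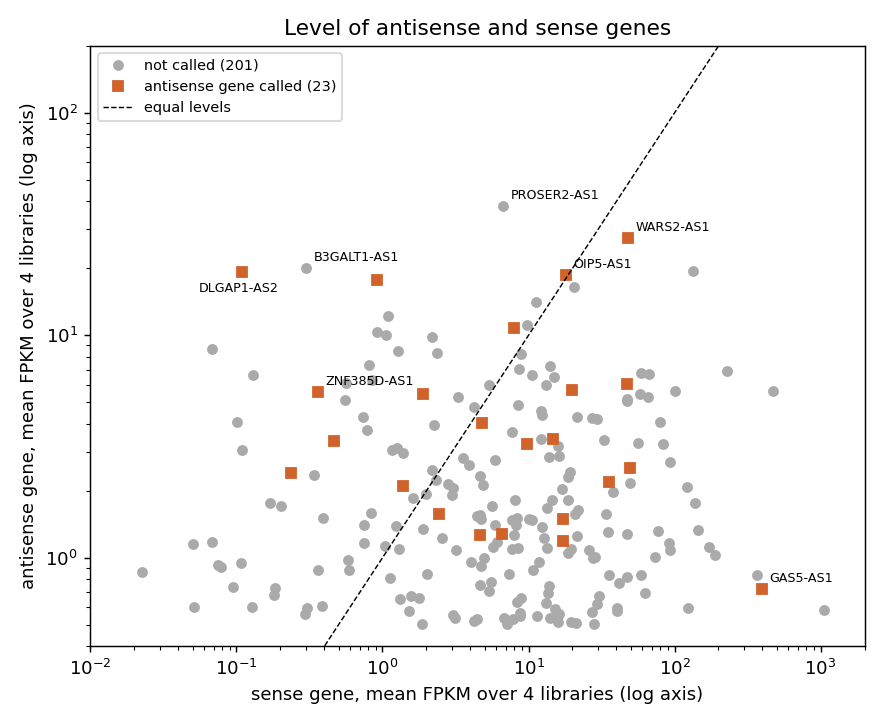
Mean FPKM of each antisense gene (vertical axis) against its sense gene (horizontal axis), both on log axes, for 224 pairs. Each point is a pair, the dashed line marks equal levels, squares are antisense genes with an adjusted p under 0.05, and 64 points lie above the line.

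Positions were found for 228 members in GENCODE 44 (hg38), 208 by symbol and 20 by RefSeq accession, over 23 chromosomes. In 152 pairs the exons of the antisense gene overlapped exons of the sense gene on the opposite strand, in 40 only the gene bodies overlapped, and in 29 the genes ran apart from starts within 1000 bases. Another 2 pairs had no such relation, 5 members had no position, and 5 had a sense name with no matching gene (such as HOXC). The median share of a member's exon bases under exons of any opposite gene was 9.0%. It was under 1% in 60 members and over 50% in 18. Library preparation did not name a kit that marks strand, and the use of strand in counting was not given in the sources used here, so reads from such shared bases cannot be told apart.

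Upon CEBPG knockdown, 25 of the 233 antisense genes changed at an adjusted p under 0.05 in limma, 16 higher and 9 lower (10.7%). Over all genes tested, 18.2% were called, 9.45% higher and 8.7% lower. Among the 211 members that reached 0.5 FPKM in both groups, 24 were called (11.4%), 15 higher and 9 lower. At an unadjusted p under 0.05, 50 members were called, beside 35% of all genes. At the fold threshold of the study (absolute log2 fold change over 1, p under 0.05 unadjusted) ZNF385D-AS1 was the single member called, beside 0.578% of all genes. With a pseudocount of 0.1 in place of 1, it was 5 members, beside 1.59% of all genes. The 2 libraries of each group did not overlap in 129 members (55.4%), 72 higher and 57 lower, beside 63.5% of all genes (33.6% higher, 30% lower). The median log2 fold change was 0.032 for the members and 0.015 for all genes, and its median size was 0.153 against 0.146. These are changes of log2(FPKM + 1), which understates low genes, and the members were lower in level than all genes. At 0.5 to 1 FPKM the single call among 70 members was GAS5-AS1, which reached 0.5 FPKM through the knockdown group alone, so nothing is read from that share. The share called was 7.58% of members at 1 to 2 FPKM (9.17% of all genes there), 19.6% at 2 to 5 FPKM (14.0%), 12.9% at 5 to 10 FPKM (19.6%) and 33.3% of the 15 members at 10 to 50 FPKM (24.2%). The members called were 23 without control 1 (14.9% of all genes called), 15 without control 2 (12.3%), 7 without knockdown 1 (4.81%) and 11 without knockdown 2 (5.29%), and 6 kept their call each time: ZNF385D-AS1, OIP5-AS1, TMEM161B-AS1, DLGAP1-AS2, UBXN10-AS1 and ATP2A1-AS1.

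**Figure D2:**
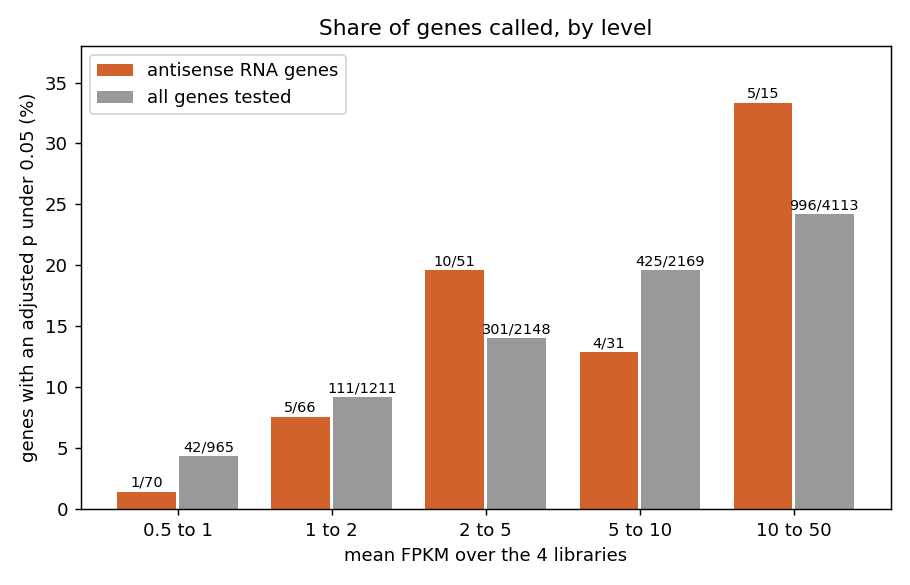
Percent of genes with an adjusted p under 0.05 (vertical axis) in bins of mean FPKM (horizontal axis), for antisense genes and for all genes tested. Numbers over the bars are genes called out of genes tested, and the antisense bars run from 5 of 66 at 1 to 2 FPKM to 5 of 15 in the highest bin. The 1 of 70 in the lowest bin is GAS5-AS1, which reached 0.5 FPKM in knockdown alone.

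Among the 9 lower genes, ZNF385D-AS1 fell most. It was 8.88 and 7.45 FPKM in control and 2.15 and 3.66 FPKM in knockdown (log2 fold change -1.25, SE 0.185, adjusted p = 0.00865). Both knockdown libraries lay under both control libraries, although they differed from each other by more, as a ratio, than those of the other lower genes. Its exons (chr3:21542789-21579959, plus strand) lay within the body of ZNF385D, a zinc finger gene that averaged 0.363 FPKM and was not tested.

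OIP5-AS1 was 23.4 and 22.9 FPKM in control and 14.2 and 13.9 FPKM in knockdown, 60.8% of control (log2 fold change -0.68, SE 0.059, adjusted p = 0.00224). The replicates were close and the groups far apart. OIP5, whose product helps load the centromeric histone CENP-A, was 18.6 and 16.8 FPKM in control and 18.5 and 18.9 FPKM in knockdown (log2 fold change 0.08, 95% interval -0.09 to 0.25, adjusted p = 0.451). OIP5-AS1 lies at chr15:41283958-41322392 on the plus strand, and 3.39% of its exon bases were under exons of OIP5.

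TMEM161B-AS1 (chr5:88268864-88439337, now TMEM161B-DT) was 6.73 and 7.27 FPKM in control and 4.12 and 4.53 FPKM in knockdown (log2 fold change -0.59, SE 0.083, adjusted p = 0.00778). TMEM161B, a membrane protein gene that starts 612 bases away on the other strand, was 19.8 and 20.6 FPKM in control and 19.5 and 19.8 FPKM in knockdown (log2 fold change -0.04, 95% interval -0.18 to 0.10). WARS2-AS1 (chr1:119140391-119275973) was 33.1 and 31.2 FPKM in control and 21.8 and 23.7 FPKM in knockdown (log2 fold change -0.48, SE 0.068, adjusted p = 0.0078). WARS2, the mitochondrial tryptophanyl-tRNA synthetase gene, starts 263 bases away. It was 48.2 and 44.6 FPKM in control and 47.7 and 51.6 FPKM in knockdown (log2 fold change 0.10, 95% interval -0.07 to 0.26).

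The 5 other lower genes had smaller changes. PRKCQ-AS1, which starts 118 bases from the protein kinase C theta gene, was 4.88 and 4.86 FPKM in control and 3.02 and 3.46 FPKM in knockdown (log2 fold change -0.47, adjusted p = 0.0173). PRKCQ itself was 5.55 and 5.0 FPKM in control and 4.61 and 3.95 FPKM in knockdown, which did not pass (log2 fold change -0.25, adjusted p = 0.120). A pair of these genes lies in homeobox clusters, which encode transcription factors of body patterning and of blood cells. HOXC-AS2, at chr12:53993810-53996785, was 3.09 and 2.90 FPKM in control and 2.02 and 1.97 FPKM in knockdown (log2 fold change -0.41, adjusted p = 0.0260). HOXB-AS1, at chr17:48543551-48551250, was 2.89 and 2.64 FPKM in control and 2.05 and 1.75 FPKM in knockdown (log2 fold change -0.38, adjusted p = 0.0477). The genes with exons opposite to them did not pass the test: HOXC6 (log2 fold change 0.01) and HOXC9 (0.08) for HOXC-AS2, HOXB2 (0.10) and HOXB3 (-0.17) for HOXB-AS1. NRSN2-AS1 was 3.69 and 4.25 FPKM in control and 2.7 and 3.0 FPKM in knockdown (log2 fold change -0.37, adjusted p = 0.0476). NRSN2 lay the other way, at 14.0 and 13.0 FPKM in control and 16.1 and 15.3 FPKM in knockdown. It did not pass in limma (log2 fold change 0.21, adjusted p = 0.0841). TMCC1-AS1, now TMCC1-DT, was 2.52 and 2.46 against 1.76 and 1.66 FPKM (log2 fold change -0.36, adjusted p = 0.0415). TMCC1, a membrane protein gene that starts 100 bases away, was 1.37 to 1.39 FPKM in all 4 libraries.

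**Figure D3:**
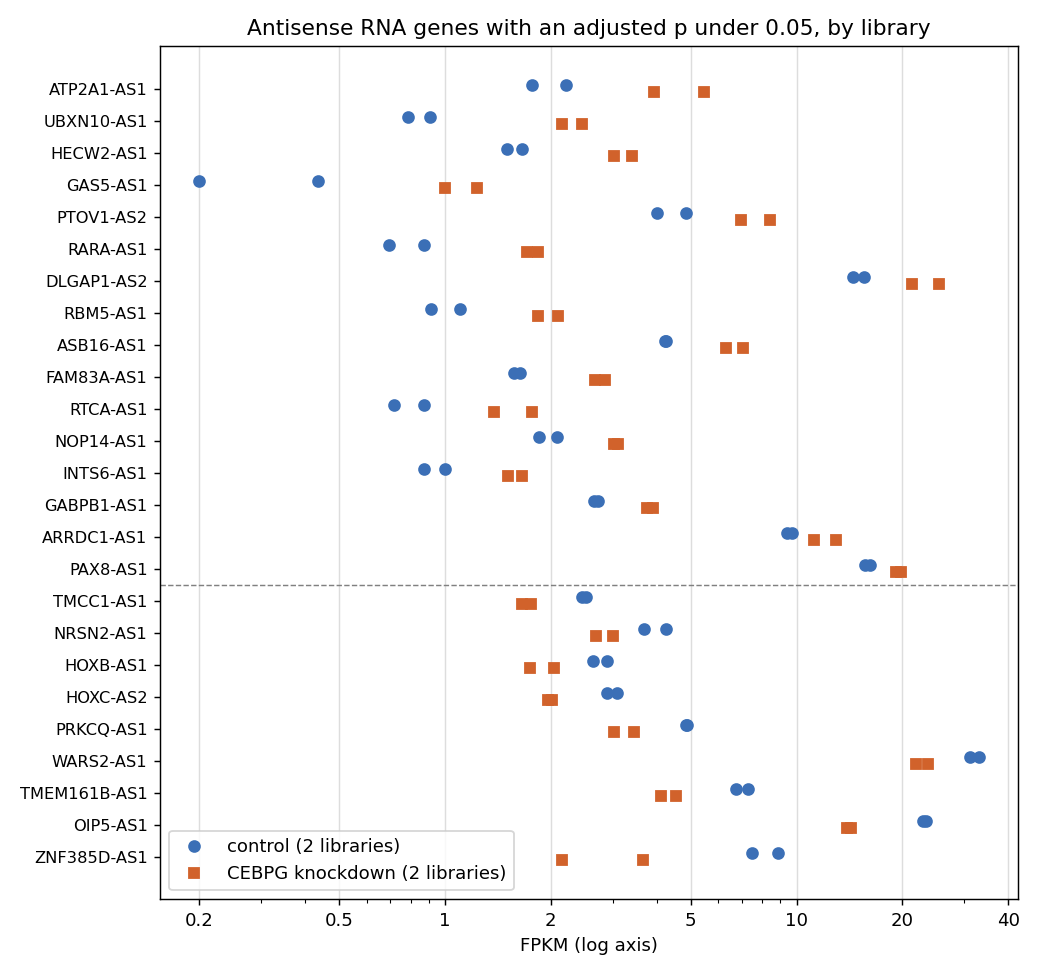
FPKM (horizontal log axis) of the 25 antisense genes with an adjusted p under 0.05, a row for each gene ordered by log2 fold change, with each library as a point (circles control, squares knockdown). The groups do not overlap in any row, and the dashed line parts the 16 higher genes from the 9 lower ones.

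The log2 fold changes of the 16 higher genes ran from 0.28 to 0.92. ATP2A1-AS1 (chr16:28877938-28879938, minus strand) had the largest value on this log2(FPKM + 1) scale, which understates low genes, and rose from 2.21 and 1.77 FPKM in control to 3.94 and 5.46 FPKM in knockdown, 236% of control (log2 fold change 0.92, SE 0.148, adjusted p = 0.0114). ATP2A1, the calcium pump of fast skeletal muscle, averaged 0.465 FPKM, and 49.1% of the antisense exon bases were under its exons. UBXN10-AS1 was 0.785 and 0.906 FPKM in control and 2.16 and 2.46 FPKM in knockdown, 273% of control (log2 fold change 0.84, SE 0.107, adjusted p = 0.00593). UBXN10, a gene for a ciliary cofactor of the ATPase VCP, lay the other way at 2.89 and 2.74 FPKM in control and 2.09 and 2.05 FPKM in knockdown, without passing the test (log2 fold change -0.31, adjusted p = 0.0560). No GENCODE position was given to UBXN10-AS1, since the RefSeq table now lists its accession under the coding gene PLA2G2C.

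HECW2-AS1 was 1.5 and 1.66 FPKM in control and 3.42 and 3.03 FPKM in knockdown (log2 fold change 0.71, SE 0.098, adjusted p = 0.00746). HECW2, a ubiquitin ligase gene, averaged 0.236 FPKM. DLGAP1-AS2, the first of the higher genes by mean over the 4 libraries though not in control alone, was 14.5 and 15.6 FPKM in control and 21.3 and 25.5 FPKM in knockdown (log2 fold change 0.60, SE 0.093, adjusted p = 0.0104). Both lie inside the bodies of sense genes that were hardly detected, and none of their exon bases was under an opposite exon.

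RARA-AS1 lies at chr17:40340867-40343136, antisense to RARA, the retinoic acid receptor gene that is fused to PML in APL. It was 0.873 and 0.696 FPKM in control and 1.84 and 1.72 FPKM in knockdown (log2 fold change 0.64, SE 0.110, adjusted p = 0.0138). RARA was 6.39 and 5.56 FPKM in control and 7.30 and 7.03 FPKM in knockdown (log2 fold change 0.23, 95% interval 0.02 to 0.43, adjusted p = 0.111), and 31.1% of the antisense exon bases were under its exons. GAS5-AS1 was 0.201 and 0.438 FPKM in control and 1.00 and 1.24 FPKM in knockdown. GAS5, the growth arrest RNA that hosts small nucleolar RNAs, averaged 397 FPKM, and 16.2% of the bases of GAS5-AS1 were under its exons. GAS5-AS1 was the single called member among the 22 that reached 0.5 FPKM in 1 group alone, here the group in which it was high, so its values are given as a description with no p. PTOV1-AS2 was 4.01 and 4.84 FPKM in control and 8.39 and 6.95 FPKM in knockdown (log2 fold change 0.68, adjusted p = 0.0138), with 42.2% of its exon bases under exons of PTOV1 (log2 fold change 0.08).

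Of the rest, ASB16-AS1 was 4.23 and 4.26 FPKM in control and 6.32 and 7.04 FPKM in knockdown (log2 fold change 0.55, adjusted p = 0.00887). NOP14-AS1, against a gene of the small ribosomal subunit processome, was 2.09 and 1.86 FPKM in control and 3.03 and 3.1 FPKM in knockdown (log2 fold change 0.45, adjusted p = 0.0226). INTS6-AS1, against a subunit gene of the Integrator complex, was 1.00 and 0.871 FPKM in control and 1.66 and 1.51 FPKM in knockdown (log2 fold change 0.42, adjusted p = 0.0427). ARRDC1-AS1 was 9.40 and 9.69 FPKM in control and 13.0 and 11.2 FPKM in knockdown (log2 fold change 0.31, adjusted p = 0.0487). Their sense genes did not pass the test, with log2 fold changes of 0.39 (ASB16, adjusted p = 0.0594), -0.06 (NOP14), 0.06 (INTS6) and 0.09 (ARRDC1).

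In 5 pairs the antisense and the sense gene were both called, each time higher. In 4 of them the exons of the antisense and the sense gene overlap, so some reads may be shared. Of these 5 pairs, 2 were still both called without control 1, 1 without control 2, and 0 without knockdown 1 or without knockdown 2. PAX8-AS1 was 16.2 and 15.6 FPKM in control and 19.2 and 19.8 FPKM in knockdown (log2 fold change 0.28, adjusted p = 0.0272), and PAX8, a paired box transcription factor gene, was 0.662 and 0.553 FPKM against 1.26 and 1.17 FPKM (log2 fold change 0.46, adjusted p = 0.0361). FAM83A-AS1 was 1.58 and 1.64 FPKM in control and 2.68 and 2.85 FPKM in knockdown, and FAM83A was 31.0 and 27.1 FPKM against 43.5 and 41.2 FPKM. The log2 fold change was 0.53 for each on the log2(FPKM + 1) scale. That scale understates low genes such as FAM83A-AS1, so equal values do not mean an equal rise in FPKM. GABPB1-AS1 (log2 fold change 0.39) starts 464 bases from GABPB1 (0.35), the beta subunit gene of the GA-binding protein transcription factor. RTCA-AS1 (log2 fold change 0.52) starts 34 bases from RTCA (0.22), the RNA 3′-terminal phosphate cyclase gene, and their exons do not overlap. Of the 2 RTCA-AS1 transcripts, only 1 rose, from 0 and 0.411 FPKM to 0.799 and 1.38 FPKM. The other was 0.717 and 0.463 FPKM in control and 0.578 and 0.396 FPKM in knockdown. RBM5-AS1 (log2 fold change 0.56) was 1.10 and 0.917 FPKM in control and 1.84 and 2.10 FPKM in knockdown, with 72.7% of its exon bases under exons of the splicing regulator RBM5 (0.25, adjusted p = 0.0428). RBM6, a related gene that also overlaps it, fell from 21.2 and 21.5 FPKM to 15.8 and 14.8 FPKM (log2 fold change -0.45, adjusted p = 0.00746).

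Calls of antisense genes were set beside those of their sense genes. Of the 195 sense genes tested, 33 were called, 16 higher and 17 lower (16.9%, beside 18.2% of all genes). Of the 19 called antisense genes with a tested sense gene, 5 had a called sense gene. With shares this low, most calls would fall apart in unrelated genes as well. The pairs with 1 gene called are thus given as counts, and their number was not tested. In 28 pairs the sense gene was called and the antisense gene was not, with 11 sense genes higher and 17 lower. Among the 9 lower antisense genes, 6 had a tested sense gene, and none of these was called. In 8 pairs the higher antisense gene had a tested sense gene that did not pass, and in 149 pairs neither passed. Across the 196 pairs the log2 fold changes correlated at r = 0.22, at 0.38 in the 29 divergent pairs, at 0.22 in the 130 with exon overlap and at 0.39 in the 30 with overlapping bodies alone. In the 12 pairs with over 50% of antisense exon bases under the sense exons, r was 0.58. These values are descriptions over pairs from the same libraries, and with exon overlap some reads may be shared.

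Pairs in which the sense gene alone was called are shown by 4 examples picked after their values were seen. THUMPD3 fell from 18.4 and 18.9 FPKM to 10.03 and 9.1 FPKM (log2 fold change -0.89, adjusted p = 0.00179), whereas THUMPD3-AS1 was 7.84 and 6.71 FPKM in control and 7.28 and 7.42 FPKM in knockdown (0.02, adjusted p = 0.914). PCBP1, which encodes a poly(C)-binding protein, fell from 213 and 201 FPKM to 142 and 139 FPKM (log2 fold change -0.55), with 1.09 and 0.945 against 1.23 and 1.22 FPKM for PCBP1-AS1. IL6, the interleukin 6 gene, rose from 0.826 and 1.42 FPKM to 2.85 and 2.96 FPKM (log2 fold change 0.89, adjusted p = 0.0120), with 0.625 and 0.777 against 0.970 and 1.01 FPKM for IL6-AS1 (0.23, adjusted p = 0.212). IDH1, the cytosolic isocitrate dehydrogenase gene, rose from 31.5 and 30.9 FPKM to 37.9 and 38.9 FPKM (log2 fold change 0.29, adjusted p = 0.0179), while IDH1-AS1 was 1.29 and 2.14 against 0.967 and 0.804 FPKM (-0.51, adjusted p = 0.0809).

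**Figure D4:**
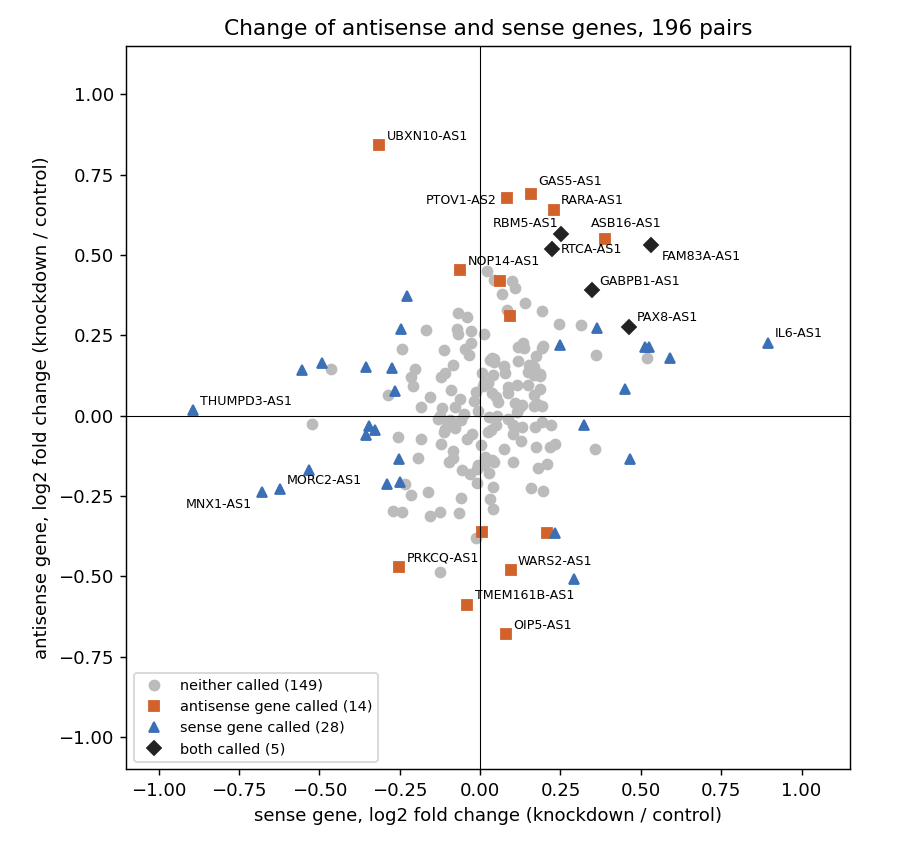
Log2 fold change, knockdown over control, of the antisense gene (vertical axis) against its sense gene (horizontal axis) for 196 pairs, a point for each pair. Squares mark 14 pairs with the antisense gene called, triangles 28 with the sense gene called, diamonds 5 with both, all where both changes are above 0, and circles 149 with neither.

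The arrangement of a pair was set beside the calls, with 18.2% of all genes called (9.45% higher, 8.7% lower). Members whose start lay within 1000 bases of the sense gene's start were called in 6 of 77 cases (7.79%, 2 higher and 4 lower), and those with starts farther apart in 16 of 146 (11.0%, 13 higher and 3 lower). With under 1% of exon bases under opposite exons, 6 of 60 members were called (10%), with 1% to 50% it was 17 of 150 (11.3%), and with over 50% it was RBM5-AS1 alone of 18 (5.56%). The differences between these shares were not tested.

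Promoter windows of RefSeq (GRCh38.p14, 250 bases before to 50 after a start) were found for 173 members. They held a median of 65.3% G and C and 25 CG pairs, beside 58.7% and 14 over all 35116 windows and 67.3% and 27 over 187 windows of the sense genes. Over the 18 called members with a window, the median was 59.8% G and C and 25 CG pairs in the 6 lower genes (5 to 49 pairs) and 64.0% and 15.5 pairs in the 12 higher ones (1 to 56 pairs), so the ranges overlapped. As examples of these starts, the windows of the 2 lower and the 2 higher called members with the largest changes are given, among windows free of annotated untranslated regions. OIP5-AS1 (chr15:41283740-41284039, plus strand) and WARS2-AS1 (chr1:119140146-119140445, plus strand) fell, with 23 CG pairs each, and RARA-AS1 (chr17:40343087-40343386, minus strand) and HECW2-AS1 (chr2:196259774-196260073, plus strand) rose, with 5 CG pairs and 1. Each is written 5′ to 3′ on the strand of the antisense gene, and capitals mark the 50 transcribed bases.
OIP5-AS1: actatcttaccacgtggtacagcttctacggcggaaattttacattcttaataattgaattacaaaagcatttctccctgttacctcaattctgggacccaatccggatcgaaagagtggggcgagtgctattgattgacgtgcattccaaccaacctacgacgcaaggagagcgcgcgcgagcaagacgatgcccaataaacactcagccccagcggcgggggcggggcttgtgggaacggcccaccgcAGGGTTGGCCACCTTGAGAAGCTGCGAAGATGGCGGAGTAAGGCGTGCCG
WARS2-AS1: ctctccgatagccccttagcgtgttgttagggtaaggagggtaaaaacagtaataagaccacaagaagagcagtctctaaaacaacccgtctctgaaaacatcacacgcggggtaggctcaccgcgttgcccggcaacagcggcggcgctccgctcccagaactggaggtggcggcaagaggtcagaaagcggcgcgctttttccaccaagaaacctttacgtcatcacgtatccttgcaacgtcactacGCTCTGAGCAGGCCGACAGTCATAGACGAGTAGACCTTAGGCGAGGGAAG
RARA-AS1: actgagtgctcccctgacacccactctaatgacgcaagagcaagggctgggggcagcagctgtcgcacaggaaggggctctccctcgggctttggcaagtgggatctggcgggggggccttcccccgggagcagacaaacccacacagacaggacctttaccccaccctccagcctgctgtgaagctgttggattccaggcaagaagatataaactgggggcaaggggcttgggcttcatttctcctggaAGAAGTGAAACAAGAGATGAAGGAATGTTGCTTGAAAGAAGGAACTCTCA
HECW2-AS1: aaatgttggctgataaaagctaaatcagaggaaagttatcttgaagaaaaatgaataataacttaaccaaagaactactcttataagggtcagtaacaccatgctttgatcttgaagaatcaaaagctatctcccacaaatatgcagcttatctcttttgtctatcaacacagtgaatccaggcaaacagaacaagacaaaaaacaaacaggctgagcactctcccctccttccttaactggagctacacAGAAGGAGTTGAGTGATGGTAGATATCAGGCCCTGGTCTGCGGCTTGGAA

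Both strands of the windows were searched for 2 short motifs that C/EBP proteins are known to bind. GATGCAA, the core of the CEBP-ATF response element, was in 1 of 173 member windows (0.578%), 4 of 187 sense gene windows (2.14%) and 2.40% of all windows. TTGCGCA, part of the C/EBP palindrome, was in 4 member windows (2.31%, those of CCNT2-AS1, THUMPD3-AS1, ZNF337-AS1 and TTC28-AS1, none of them called), in 1 of 187 sense gene windows (0.535%) and in 1.94% of all windows. The member with GATGCAA was NRSN2-AS1, 1 of the 9 lower genes, and the motif lay 117 bases before its start. The call of NRSN2-AS1 was near the threshold (adjusted p = 0.0476 in limma). It was lost with columns scaled to 1 sum, with moderation without a trend and with no filter on low values. The NRSN2-AS1 window is shown because it holds the single match, in capitals and read from the other strand (chr20:325203-325502, minus strand). The motifs thus matched in different members. A match in these letters is a description and not a binding site.
NRSN2-AS1: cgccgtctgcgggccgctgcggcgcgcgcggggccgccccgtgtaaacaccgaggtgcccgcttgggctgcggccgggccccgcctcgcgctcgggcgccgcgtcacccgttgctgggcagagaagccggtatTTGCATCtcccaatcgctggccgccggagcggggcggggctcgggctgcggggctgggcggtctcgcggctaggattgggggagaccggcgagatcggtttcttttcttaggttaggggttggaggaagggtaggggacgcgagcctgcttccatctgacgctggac

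Nuclear RNA turnover limits many antisense and upstream transcripts through the RNA exosome and its adaptors. A list of 24 turnover factors was written from general knowledge. The list also holds XRN1, DCP2 and UPF1, which act mainly in the cytoplasm. All 24 were tested, and 0 rose and 3 fell at an adjusted p under 0.05 in limma (12.5%, beside 18.2% of all genes). At an unadjusted p under 0.05, 10 of them passed (35% of all genes). PABPN1, the nuclear poly(A)-binding protein of an exosome adaptor, fell from 67.1 and 64.8 FPKM to 41.1 and 40.1 FPKM (log2 fold change -0.69, SE 0.055, adjusted p = 0.00189). MTREX, the exosome helicase, fell from 43.5 and 42.5 FPKM to 35.5 and 36.9 FPKM (log2 fold change -0.24, adjusted p = 0.0324), and SRRT, which links the cap-binding complex to RNA decay, from 70.3 and 68.2 FPKM to 59.5 and 60.9 FPKM (-0.20, adjusted p = 0.0499). Of 7 genes of Polycomb repressive complex 2, a chromatin complex named as a partner of several antisense RNAs, RBBP4 alone was called (log2 fold change -0.28, adjusted p = 0.0338), while its catalytic subunit gene EZH2 did not pass (0.18, adjusted p = 0.0630).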

How the data were processed

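RNA was measured in 4 libraries, 2 control and 2 CEBPG knockdown. Per the labels, total RNA went into an Illumina TruSeq RNA library kit, and the submitters' processing notes name HISAT2 2.0.5 and hg38. The authors deposited FPKM values per RefSeq transcript, with 29265 entries, of which 183 held no value and 164 no symbol (0.250% of FPKM). The quantifier, annotation release and strand setting were not given in the sources used here. FPKM carries no counts, so depth is unknown and no counting interval is given.

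Entries were summed to 16504 gene symbols. A filter at a mean of 0.5 FPKM left 11933 genes, tested on log2(FPKM + 1) in limma 3.58.1 (R 4.3.3) with empirical Bayes moderation and a mean trend, 2-sided, with Benjamini-Hochberg adjustment over all genes. Fold changes of low genes are understated on this scale. The authors used DESeq2, which needs counts. DOCK8-AS1 has a coding entry alone and was not taken.

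Members and lists were chosen with earlier results of these data known. Named genes were the called members with their sense genes and the genes opposite to them, the 10 most abundant members, those next to the 0.5 FPKM threshold, and the called turnover genes. Other named genes were chosen after their values were seen. Replicate numbers were checked for pairing: deviations of same-numbered libraries correlated at 0.079, so no block was used. Alternatives were another pseudocount, filter, scaling or moderation, a replicate block, transcripts in place of genes, and leaving out each library. Figures were drawn with matplotlib 3.10.9.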

Additional observations from a re-analysis of the deposited data

How the results depend on the processing

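None of the 25 called antisense genes changed sign in a fit by gene. With a pseudocount of 0.1, 25 antisense genes were called (18.0% of all genes), 5 passed the threshold of the study in place of 1 (1.59% of all genes in place of 0.578%), and their median log2 fold change was 0.062 in place of 0.032. That median was 0.064 with a filter at 1 FPKM (26 of 163 members called, beside 20.9% of all genes) and 0.021 with columns scaled to 1 sum (24 called, beside 21.3% of all genes, and a sense gene median of 0.014 in place of 0.029). With every one of 16504 genes tested, whatever its level, 8 antisense and 11 sense genes were called, with 5.34% of all genes called. At the level of transcripts, 0 of 283 antisense transcripts passed in limma (29 at an unadjusted p under 0.05), beside 23 of 18760 transcripts in all (18.5% at an unadjusted p under 0.05). Leaving out a library gave 7 to 23 called antisense genes, 1 to 2 past the threshold of the study, a median of 0.024 to 0.045, and 8 to 23 called sense genes in place of 33. Of the 25 called members, OIP5-AS1, TMEM161B-AS1 and UBXN10-AS1 kept their call in every fit by gene.

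The labels name nothing that same-numbered libraries share, and their deviations correlated at 0.079 over 11933 genes. With the replicate number as a block, 36 antisense genes (23 higher, 13 lower) and 44 sense genes were called, beside 26.0% of all genes. Median-ratio scaling called 26 antisense genes (21.7% of all genes) and moderation without a trend 24 (13.6%). The depth is unknown.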

Other observations

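Other noncoding gene classes were counted in the same limma fit. Of 1276 genes with RefSeq noncoding entries alone, the antisense genes among them, 79 were higher and 49 lower at an adjusted p under 0.05 (10%), beside 18.2% of all genes. Long intergenic genes named LINC gave 7 higher and 9 lower of 119 (13.4%), and divergent transcripts named -DT gave 2 higher and 0 lower of 26 (7 in either direction at an unadjusted p under 0.05, beside 35% of all genes). Small nucleolar RNA host genes named SNHG gave 1 higher and 1 lower of 20. None of 5 intronic transcripts named -IT was called (0 at an unadjusted p under 0.05 as well). The median level was 1.98 FPKM for all noncoding genes, 1.95 FPKM for LINC genes and 25.4 FPKM for SNHG genes. The differences between these classes were not tested.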
